A study of Homo sapiens with 17 samples.

Results

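The 10 genes described here encode the subunits that set canonical BAF and PBAF apart from the third human SWI/SNF complex, the non-canonical BAF that holds BRD9. They were taken by symbol from the RNA-seq table, as ARID1A, ARID1B, ARID2, PBRM1, DPF1, DPF2, DPF3, PHF10, SMARCB1 and SMARCE1. All 10 were among its 17808 genes, and 8 of them passed the filter on low values, 1 RPKM or more in 3 or more libraries. The series covered 17 samples of HepG2, a human liver cancer line given as wild type, and its title concerned BRD9 and histone H3K18 lactylation. RNA was measured in 9 libraries, 3 of untreated cells (NC), 3 after 2-DG at 40 mM and 3 after Nala at 40 mM, which the design text calls biological replicates. The sugar analogue 2-DG (2-deoxyglucose) blocks glycolysis, and Nala is written as in the labels. Titles put NC at 24 h and 2-DG at 48 h, so that treatment and time in culture cannot be told apart, and they gave 48 h for Nala where the design text gave 24 h. Its 6 ChIP-seq samples and 2 ATAC-seq samples were left aside.

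SWI/SNF complexes use ATP to slide or eject nucleosomes and so open DNA to transcription factors. Canonical BAF is built on ARID1A or ARID1B, which exclude each other, and carries a DPF subunit whose paired PHD fingers read acylated histone H3 tails. PBAF is built on ARID2 and adds PBRM1, a protein with several bromodomains, and PHF10 in place of a DPF subunit. SMARCB1 and SMARCE1 belong to both complexes and are missing from non-canonical BAF. ARID1A and ARID2 are recurrently mutated in liver cancer.

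Libraries held 6199778 to 6653130 counted reads, recovered from the steps in the values. Nala replicates 2 and 3 differed by less than the sampling noise (chi-square per degree of freedom 0.923 over 12897 genes, against 2.12 to 9.89 for the other replicate pairs) and were counted as 1 sample, which leaves n = 2 for every Nala mean, SD and test. Of 17 hepatocyte markers 6 were in the table, and of these APOB and TF stayed at or under 0.109 RPKM in every library, while CEBPA lay between 14.0 and 33.9 RPKM. The summed level of the 6 was 23.6 to 40.96 RPKM in NC, 21.03 to 27.4 with 2-DG and 19.9 to 29.01 with Nala, most of it CEBPA. None of the 3 tested was called with 2-DG by limma (1 at an unadjusted p under 0.05), and 2 of them had a positive log2 fold change, with a median of 0.40. Of 7 fibroblast markers 5 were in the table, with a summed level of 44.6 to 85.4 RPKM in NC, 33.2 to 50.9 with 2-DG and 60.5 to 69.9 with Nala. Over the libraries COL1A1 lay between 26.1 and 59.1 RPKM, PDGFRB between 5.05 and 14.8 and COL3A1 between 1.02 and 12.9. These were the 3 tested. DCN stayed at or under 1.27 and LUM at or under 0.220 RPKM. With 2-DG 2 of the 3 tested fibroblast markers were called lower by limma, beside 20.7% of all tested genes. Groups did not overlap for 2 of the 3, both lower, against 52.1% of all genes in either direction. The log2 fold changes of the 3 ran from -1.94 to -0.27 with a median of -0.997 (smallest limma adjusted p = 8.3e-05). Of 5 immune markers 4 were in the table, at 18.2 to 26.0, 8.21 to 14.0 and 23.2 to 25.8 RPKM. Most of that sum was CD68, with PTPRC at or under 0.0593 RPKM. Of the 2 tested immune markers 1 was called lower with 2-DG (limma adjusted p = 0.0032), beside the same 20.7% of all genes. The 5 endothelial markers summed to 1.33 to 7.91, 1.79 to 2.17 and 2.30 to 4.53 RPKM, nearly all of it CDH5, with KDR at or under 0.0266 RPKM. The part of these markers in the results below was not tested.

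DPF1 and DPF2, paralogs for 1 position in canonical BAF, moved in opposite directions with 2-DG, and their promoter windows are shown for that reason. Each line gives 300 bases of RefSeq sequence (GRCh38.p14, the same assembly as hg38), from 250 before to 50 after the gene's start, 5′ to 3′ on the gene's own strand. DPF1 lies on the minus strand (chr19:38229646-38229945) and DPF2 on the plus strand (chr11:65333602-65333901).
DPF1: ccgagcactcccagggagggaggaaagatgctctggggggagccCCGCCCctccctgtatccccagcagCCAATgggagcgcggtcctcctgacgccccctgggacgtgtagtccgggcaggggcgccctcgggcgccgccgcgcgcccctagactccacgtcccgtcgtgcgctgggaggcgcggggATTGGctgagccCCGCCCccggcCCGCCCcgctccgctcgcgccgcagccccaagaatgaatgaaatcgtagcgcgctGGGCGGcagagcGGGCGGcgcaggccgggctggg
DPF2: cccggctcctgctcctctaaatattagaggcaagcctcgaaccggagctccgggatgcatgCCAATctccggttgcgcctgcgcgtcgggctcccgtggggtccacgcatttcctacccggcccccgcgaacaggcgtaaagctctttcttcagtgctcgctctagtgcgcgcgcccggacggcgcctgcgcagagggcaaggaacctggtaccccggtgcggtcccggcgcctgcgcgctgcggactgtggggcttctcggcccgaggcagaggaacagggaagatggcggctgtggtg
Capitals mark the GC box GGGCGG and the CCAAT box CCAAT on either strand. The DPF1 window held 5 GC boxes, 2 on its own strand and 3 on the other, and the DPF2 window held 0. A GC box was found in 44.6% of 27305 promoter windows of the same length. CCAAT was found at 2 places in DPF1 and 1 in DPF2, and in 35.7% of all windows. The E box CACGTG and the cAMP response element TGACGTCA, held by 7.43% and 1.98% of windows, matched neither gene. G and C made up 75.3% of the DPF1 window and 67.7% of that of DPF2, against a median of 58.3%. These matches describe the letters of the windows and nothing more.

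In untreated cells the members spanned a wide range of levels, here in RPKM, which is per length of gene model. DPF2 was the highest at 45.3 ± 2.61, followed by SMARCE1 at 40.1 ± 2.63 and ARID1A at 33.3 ± 2.51 (SD, n = 3 per group). PBRM1 at 15.7 ± 1.09, ARID2 at 15.2 ± 0.415, ARID1B at 13.2 ± 0.654 and PHF10 at 10.8 ± 1.82 formed a middle group, and DPF1 came next at 6.16 ± 0.966 (SD, n = 3 per group). DPF3 was at or under 0.478 RPKM, and SMARCB1 was listed at 0 in 2 of the 3 NC libraries and has no firm place in the order. Libraries of neighbours in this order overlapped for DPF2 and SMARCE1, for PBRM1 and ARID2, and for ARID1B and PHF10. They did not overlap between SMARCE1 and ARID1A, between ARID1A and PBRM1, between ARID2 and ARID1B, or between PHF10 and DPF1. Against all genes of the table DPF2 stood at percentile 89.4, ARID1A at 81.8, ARID2 at 60.9 and DPF1 at 45.1 of mean level in NC.

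**Figure D1:**
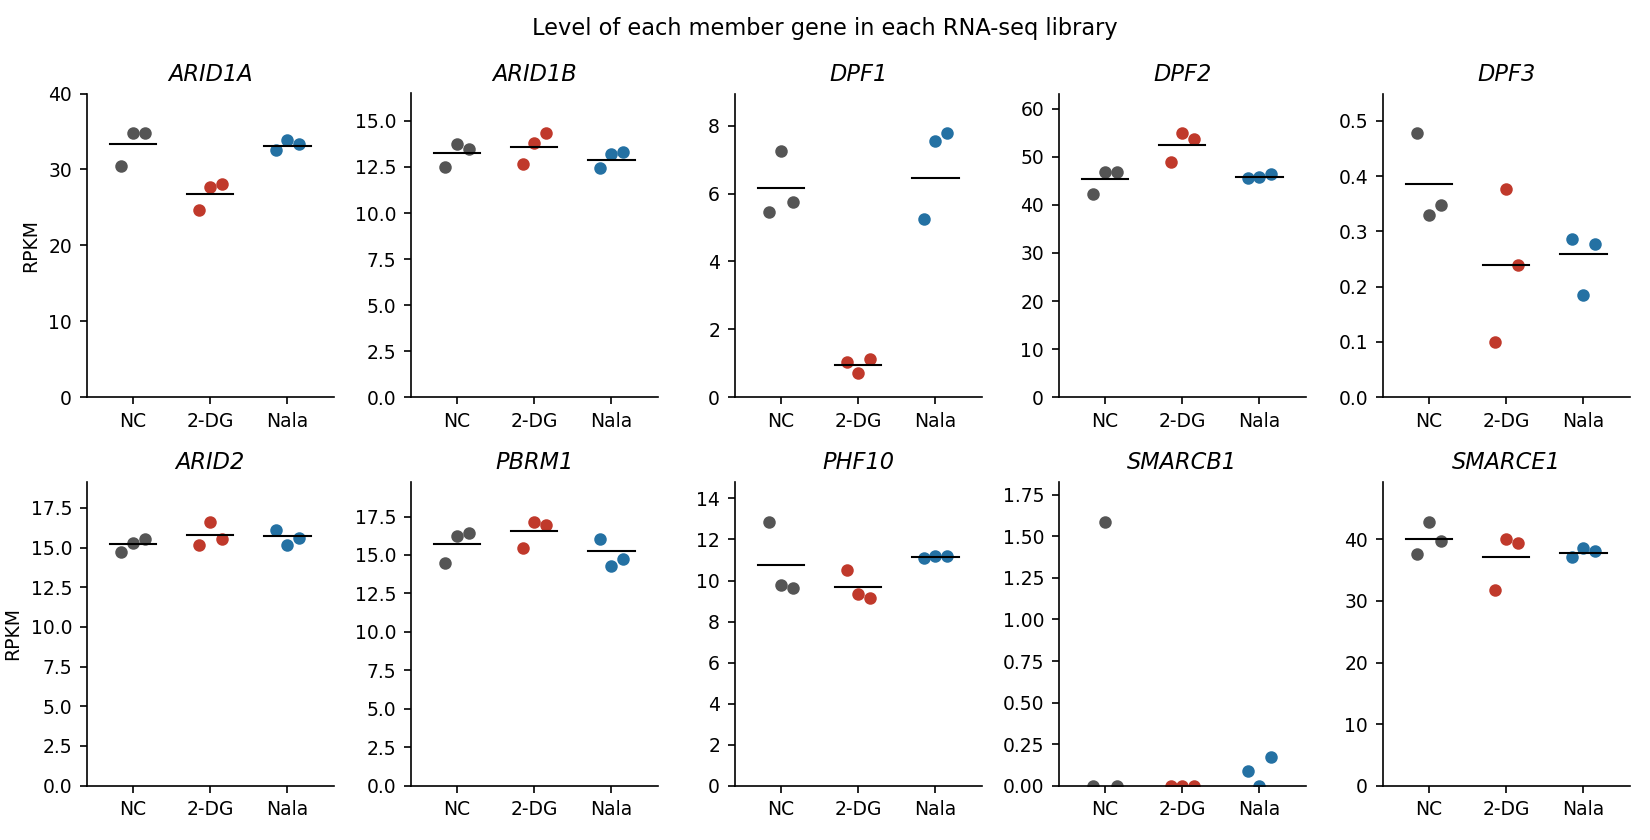
RPKM of each member gene (vertical axes, from 0, each panel with its own scale) in the 3 NC, 3 2-DG and 3 Nala libraries (points), with the group mean as a line, for Nala the mean of replicate 1 and of the averaged pair. DPF1 and ARID1A lay lower in all 3 2-DG libraries than in any NC library, DPF2 lay higher, and SMARCB1, drawn without a mean, was near 0 outside 1 NC library.

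With 2-DG 3 of the 8 tested members changed, DPF1 and ARID1A falling and DPF2 rising, by limma on log2(RPKM + 1) at an adjusted p under 0.05 over all 12922 genes tested. In this comparison 43.3% of all tested genes were called, 22.6% higher and 20.7% lower, so the count of members is close to the background. Groups did not overlap for the same 3 members, against 52.1% of all genes. The median log2 fold change of the 8 was -0.04, beside 0.02 over all genes. Fewer transcribing cells and less RNA per cell cannot be told apart in such bulk samples.

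Among the readers of histone tails in canonical BAF, DPF1, a subunit best known from neurons, had the largest change of the 8 tested members. It lay at 5.46, 7.26 and 5.74 RPKM in NC (83, 112 and 84 reads), at 1.03, 0.714 and 1.12 RPKM with 2-DG (15, 11 and 17 reads) and at 5.25, 7.54 and 7.78 RPKM with Nala (80, 118 and 122 reads). Every 2-DG library was far below every other library, while the NC and Nala libraries overlapped. The mean was 6.46-fold lower with 2-DG, at 0.953 ± 0.212 against 6.16 ± 0.966 RPKM (SD, n = 3 per group). After adding the pseudocount of 1 RPKM, which shrinks the change of so low a gene, DPF1 fell by 1.87 in log2 units (SE 0.176, limma adjusted p = 5.5e-05). The DPF1 gene spans chromosome 19 from 38211006 to 38229695, and no other gene of the RefSeq annotation overlaps it.

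DPF2, the DPF subunit found in most tissues, lay at 42.3, 46.8 and 46.9 RPKM in NC, at 48.9, 54.9 and 53.7 RPKM with 2-DG and at 45.6, 45.8 and 46.5 RPKM with Nala. The 2-DG libraries were above all others, and the Nala libraries fell within the range of NC. DPF2, located on chromosome 11 from 65333852 to 65354262, rose by 15.9% in mean RPKM and by 0.21 in log2 units (SE 0.0748, limma adjusted p = 0.0476). This call is at the edge of the threshold. It was lost without NC replicate 1, 2 or 3 (limma adjusted p = 0.134, 0.0639 and 0.0786), without 2-DG replicate 2 or 3 (0.147 and 0.142) and without Nala replicate 1 (0.0751). It was also lost without a filter, with median-of-ratios scaling, without an intensity trend, with the compared groups alone and with voom on the recovered reads (limma adjusted p = 0.0524, 0.0601, 0.0854, 0.0746 and 0.0562).

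DPF3, a subunit best known from heart and muscle, had 7 to 10 reads per library in NC, 2 to 8 with 2-DG and 4 to 6 with Nala. Its levels were 0.478, 0.329 and 0.347 RPKM in NC and 0.0994, 0.377 and 0.239 RPKM with 2-DG. These groups overlapped, and the gene was under the filter and was not tested. Within the DPF family, DPF1 made up 11.8 ± 1.33% of the summed RPKM in NC (SD, n = 3) and 1.79 ± 0.444% with 2-DG (SD, n = 3), against 12.2 ± 2.77% with Nala (SD, n = 2). DPF2 made up the rest almost alone, at 87.4 ± 1.25% in NC and 97.8 ± 0.261% with 2-DG (SD, n = 3 per group). The summed RPKM of the family ranged from 48.2 to 54.4 in NC and from 50.03 to 56.04 with 2-DG.

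Of the ARID subunits, ARID1A, the larger part of canonical BAF's ARID RNA here, lay at 30.4, 34.8 and 34.8 RPKM in NC, at 24.6, 27.7 and 28.03 RPKM with 2-DG and at 32.6, 33.9 and 33.3 RPKM with Nala. The 2-DG libraries were below all others, and the Nala libraries lay within the NC range. ARID1A, located on chromosome 1 from 26696015 to 26782104, fell by 0.30 in log2 units (SE 0.0879, limma adjusted p = 0.0201), a loss of mean level from 33.3 ± 2.51 to 26.8 ± 1.87 RPKM (SD, n = 3 per group). Its call was lost without NC replicate 2 or 3 (limma adjusted p = 0.0647 and 0.0786), and then DPF1 alone was left of the members called.

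ARID1B (chromosome 6, 156776026 to 157210779), the paralog that takes the place of ARID1A, lay at 12.5, 13.7 and 13.5 RPKM in NC and at 12.7, 13.8 and 14.3 RPKM with 2-DG, in overlapping groups. Its log2 fold change was 0.04 (SE 0.0963, 95% interval -0.18 to 0.25, limma adjusted p = 0.793). The ratio of ARID1A to ARID1B was chosen with earlier results of these genes known, so it restates their levels within each sample and is no independent support. The log2 ratio of RPKM + 1 was 1.27 ± 0.0434 in NC and 0.93 ± 0.0261 with 2-DG (SD, n = 3 per group), and all 3 2-DG libraries were below all 3 NC libraries. The difference of -0.34 had a two-sided exact permutation p of 0.1, the smallest that 3 against 3 samples allow, and an adjusted p of 0.36 over the 9 ratio tests. With Nala the ratio was 1.30 ± 0.0308 (SD, n = 2), a difference of 0.03 from NC (exact permutation p = 0.6).

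ARID2 (chromosome 12, 45729706 to 45908037), the ARID subunit of PBAF, ranged from 14.7 to 15.6 RPKM in NC and from 15.2 to 16.6 RPKM with 2-DG. Its log2 fold change was 0.05 (SE 0.0876, 95% interval -0.15 to 0.25, limma adjusted p = 0.674). The log2 ratio of ARID1A to ARID2 went from 1.08 ± 0.0743 in NC to 0.73 ± 0.0770 with 2-DG (SD, n = 3 per group). The exact permutation p was 0.1, again the smallest possible, with an adjusted p of 0.36 over the 9 ratio tests. This ratio too restates the levels of its genes and is no independent support. As a share of the summed RPKM of the ARID genes, ARID1A made up 53.9 ± 1.01% in NC and 47.7 ± 0.731% with 2-DG (SD, n = 3 per group), while ARID2 made up 24.6 ± 0.840% and 28.1 ± 1.14%. The Nala values for these shares, 53.6 ± 0.448% and 25.5 ± 1.12% (SD, n = 2), lay near those of NC.

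**Figure D2:**
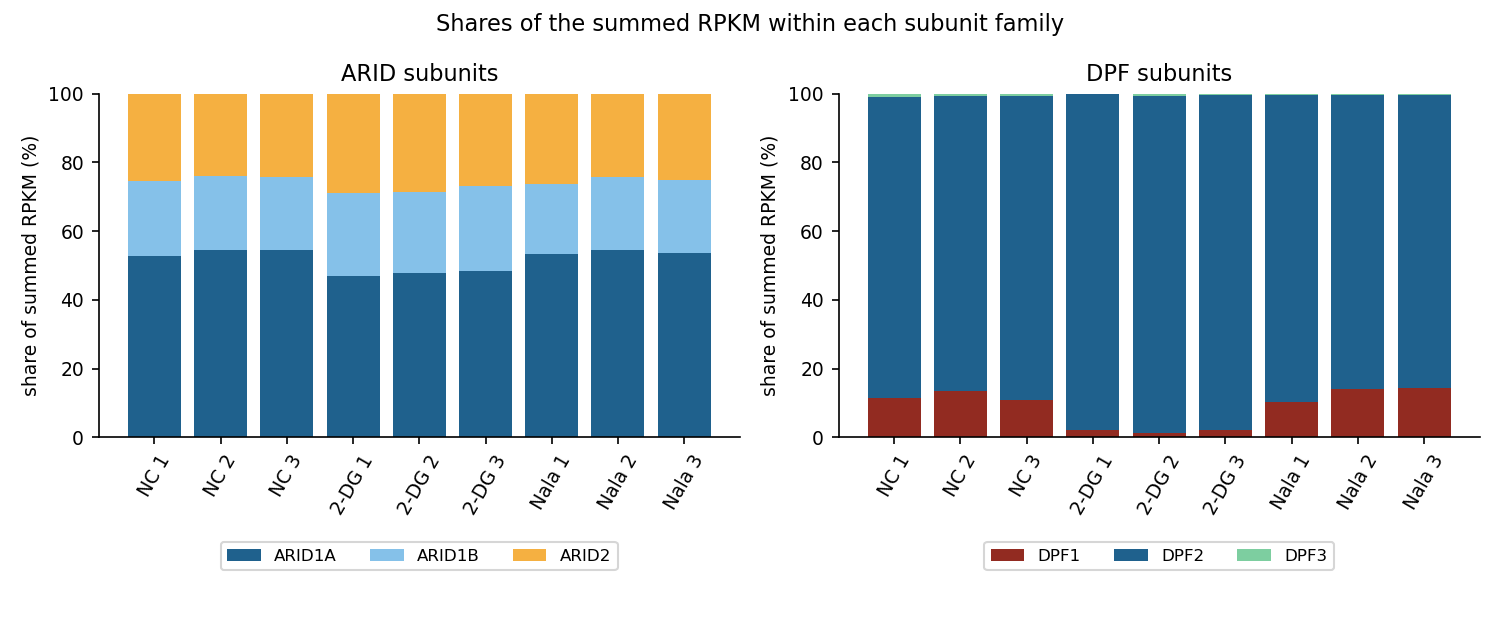
Share of the summed RPKM (%, vertical axes from 0 to 100) held by ARID1A, ARID1B and ARID2 (left) and by DPF1, DPF2 and DPF3 (right) in each of the 9 libraries. DPF1 held 10.8 to 13.4% in NC and 1.27 to 2.05% with 2-DG, and ARID1A held 52.8 to 54.5% and 46.95 to 48.4%.

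The other subunits particular to PBAF did not pass the test with 2-DG. PBRM1 (chromosome 3, 52545367 to 52685913), which binds acetylated histones, ranged from 14.5 to 16.5 RPKM in NC and from 15.5 to 17.2 RPKM with 2-DG, with a log2 fold change of 0.07 (SE 0.0971, 95% interval -0.15 to 0.29, limma adjusted p = 0.589). PHF10 lay at 12.9, 9.78 and 9.66 RPKM in NC and at 10.5, 9.36 and 9.14 RPKM with 2-DG, so that 1 NC library was higher than the rest and the groups overlapped. Its log2 fold change was -0.13 (SE 0.128, 95% interval -0.42 to 0.16, limma adjusted p = 0.435). PHF10 shares its locus with C6orf120, at 10.2 to 14.3 RPKM. Whether counting used the strand is not stated in these sources. BRD7, the remaining subunit particular to PBAF, is outside the 10 genes. It went from 31.1 ± 2.92 to 26.6 ± 0.890 RPKM (SD, n = 3 per group) with a log2 fold change of -0.21 (limma adjusted p = 0.0800) and groups that did not overlap. The log2 ratio of DPF2 to PHF10, readers of BAF and PBAF, was 1.99 ± 0.298 in NC and 2.33 ± 0.184 with 2-DG (SD, n = 3 per group, exact permutation p = 0.3).

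Of the subunits common to both complexes, SMARCE1, a DNA-binding HMG-box protein, lay at 37.7, 42.9 and 39.8 RPKM in NC, at 31.8, 39.99 and 39.5 RPKM with 2-DG and at 37.1, 38.7 and 38.1 RPKM with Nala. The groups overlapped, and 2-DG replicate 1 was below all other libraries. The log2 fold change with 2-DG was -0.12 (SE 0.0998, 95% interval -0.34 to 0.11, limma adjusted p = 0.377), and it was -0.01 without that library.

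SMARCB1, a core subunit that contacts the nucleosome and is lost in rhabdoid tumours, was listed at 0 in 6 of the 9 libraries. It had 18 reads in NC replicate 2, or 1.59 RPKM, and 1 and 2 reads in Nala replicates 1 and 3. NC replicates 1 and 3 and all 2-DG libraries were listed at 0. The gene was under the filter and no fold change was computed. As most cells use SMARCB1, it is given here only as listed at 0. In RefSeq DERL3 overlaps SMARCB1 on chromosome 22, and no values were given for DERL3.

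**Figure D3:**
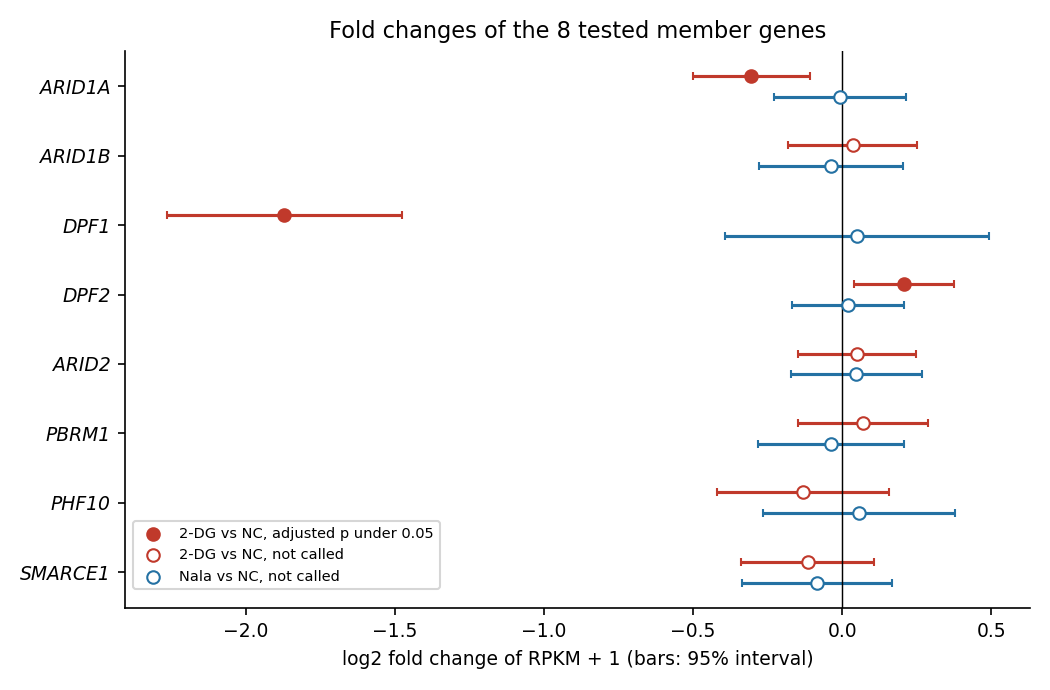
Log2 fold change of RPKM + 1 (horizontal axis) of the 8 tested members with 2-DG and with Nala against NC, with 95% limma intervals as bars and filled points for an adjusted p under 0.05. With 2-DG DPF1 stands at -1.87, ARID1A at -0.30 and DPF2 at 0.21, while the intervals of all 8 members with Nala include 0.

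With Nala none of the 8 tested members was called against NC by limma, where 0.0619% of all genes were called, and 0 of the 8 had an unadjusted p under 0.05. Voom on the recovered reads also called 0 of them. Log2 fold changes ran from -0.08 for SMARCE1 to 0.06 for PHF10, with a median of 0.01. No tested member had groups that did not overlap, against 18.2% of all genes. The intervals were widest for DPF1, at -0.39 to 0.49, and for PHF10, at -0.27 to 0.38, and that of ARID1A ran from -0.23 to 0.21. Changes of these sizes could not be told from the spread between samples.

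The test of Nala against 2-DG compared the treated groups directly, and shares its 2-DG libraries with the comparison above. The design text gives 48 h for 2-DG and 24 h for Nala, and on those times agent and time cannot be told apart. DPF1 was higher with Nala by 1.92 log2 units (SE 0.197, limma adjusted p = 1.4e-04) and ARID1A by 0.30 (SE 0.0982, limma adjusted p = 0.0406). These were the 2 of 8 members called, both higher with Nala, where 35.9% of all genes were called and 17.9% were higher. Groups did not overlap for 4 of the 8, ARID1A, DPF1, DPF2 and PHF10, against 58.2% of all genes. DPF2 had a log2 fold change of -0.19 (limma adjusted p = 0.106), and it was called with the Nala pair kept apart, with a replicate block and without 2-DG replicate 1 (limma adjusted p = 0.0451, 0.0383 and 0.0312). PHF10 had one of 0.19 (limma adjusted p = 0.334). The ARID1A call was lost without NC replicate 3, 2-DG replicate 1, 2 or 3, or Nala replicate 1 (limma adjusted p = 0.0623, 0.0571, 0.0627, 0.0642 and 0.141), and without a trend or with the compared groups alone (0.0578 and 0.0529).

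The order of libraries within a group was alike for several members. In NC, 7 of the 8 tested members were lowest in replicate 1, with PHF10 the exception. With 2-DG, 6 of the 8 (ARID1A, ARID1B, ARID2, PBRM1, DPF2 and SMARCE1) were lowest in replicate 1. PHF10 was highest in replicate 1 of both groups. With Nala 6 of the 8 were lowest in replicate 1, and there PHF10 was among them. Over all tested genes NC replicate 1 was the lowest of its group for 38.4%, 2-DG replicate 1 for 50.7% and Nala replicate 1 for 44.3%. The labels do not state that equal numbers mark a shared culture or day.

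The rest of the SWI/SNF family was followed through 21 other subunit genes, of which 18 were tested. With 2-DG 1 of these rose and 4 fell, where 22.6% of all tested genes were higher and 20.7% lower. Their median log2 fold change was -0.11. The ATPase SMARCA4 (BRG1) went from 58.4 ± 5.23 to 29.5 ± 2.88 RPKM (SD, n = 3 per group). On the log2 scale it fell by 0.96 (SE 0.0923, limma adjusted p = 6.1e-05). Its paralog SMARCA2 (BRM) lay at 8.69 ± 1.38 and 8.01 ± 0.223 RPKM (SD, n = 3 per group, limma adjusted p = 0.569). BCL7C fell by 0.64 and the actin-related ACTL6A fell by 0.45, while BCL7A, another BCL7 subunit, rose by 0.33 with overlapping groups (limma adjusted p = 0.0012, 0.0035 and 0.0405). The fourth gene that fell was the scaffold SMARCC1, at -0.42, named after its value was seen. With Nala none of the 18 was called by limma (1 at an unadjusted p under 0.05) or by voom.

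Chromatin genes outside SWI/SNF were followed in the same way. With 2-DG, of 24 subunits of other remodellers 1 rose and 14 fell, beside the same all-gene shares of 22.6% higher and 20.7% lower. Their median log2 fold change was -0.28. HELLS, an ATPase of DNA methylation maintenance, fell by 1.19 and BAZ1A, an ISWI partner, fell by 0.68 (limma adjusted p = 3.5e-05 and 8.7e-04). The total of 15 was 9 without NC replicate 3 and 8 without 2-DG replicate 3. Of 16 tested polycomb genes, whose complexes oppose SWI/SNF, 3 rose and 5 fell, near the 43.3% of all genes called, with a median of -0.09. PHF19 of PRC2 fell by 1.11 and CBX7 of PRC1 rose by 0.95 (limma adjusted p = 9.0e-06 and 0.0034). Whether these lists differ from the 10 genes was not tested. With Nala none of either list was called by limma (1 and 0 genes at an unadjusted p under 0.05) or by voom.

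**Figure D4:**
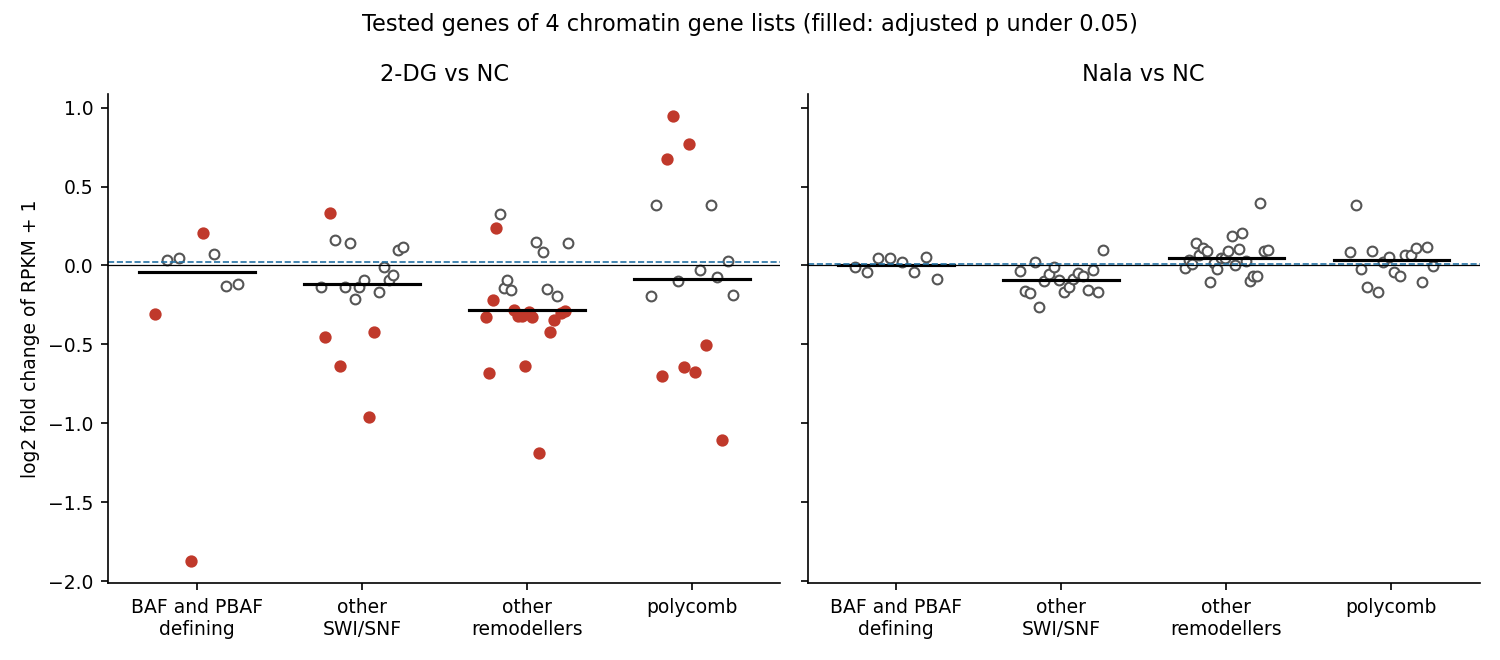
Log2 fold change of RPKM + 1 (vertical axis) of each tested gene of the BAF and PBAF defining subunits, other SWI/SNF subunits, other remodellers and polycomb genes, with 2-DG (left) and Nala (right) against NC. Filled points have an adjusted p under 0.05, black bars are list medians and the dashed line is the median of all genes tested. With 2-DG the list medians were -0.04, -0.11, -0.28 and -0.09, and with Nala no point is filled.

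The genes most like DPF1 over the 8 samples, by Pearson correlation of log2(RPKM + 1), were NELFCD, CD320 and FCHO1, each with r of 0.99. Such a correlation compares the pattern over samples and not the size of the change. NELFCD went only from 79.7 ± 2.21 RPKM in NC to 60.5 ± 1.97 with 2-DG (SD, n = 3 per group). CD320 went from 55.2 ± 2.62 RPKM in NC to 25.7 ± 2.32 with 2-DG (SD, n = 3 per group) and lay at 56.3 ± 3.28 with Nala (SD, n = 2). In all 568 genes had an r of at least 0.95 with DPF1, and the samples share the same libraries and groups. The genes most like DPF2 were LINC00958, MED10 and ATP6V1B2, each with r of 0.99, and 145 genes reached 0.95. MED10 went from 62.4 ± 7.21 to 81.1 ± 10.2 RPKM with 2-DG (SD, n = 3 per group).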

How the data were processed

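The authors deposited RPKM values, scaled to gene model length and to each library's counted total, with 1 column for each of 9 libraries. Per the submitters' processing notes the build was hg38, and HISAT2 2.1.0, RSEM 1.2.8 and STAR 2.7.6a were among the tools named for the 3 assays; which of them made the RPKM values is not stated there. Values were whole multiples of 1 read within 0.0001 reads for 100% of genes, which gave each library's total. A gene was tested if 3 or more libraries held 1 RPKM or more. Log2(RPKM + 1) of the 3 groups, 8 samples in all, was fitted in R 4.3.3 by limma 3.58.1, using an intensity trend, and p-values were adjusted by Benjamini-Hochberg over all genes. The fit was also run on simulated data with far fewer changed genes than were called with 2-DG, and no result above rests on that run. Ratios were compared by exact permutation (scipy 1.17.1). The members, the gene lists and the averaging of the Nala pair were chosen with earlier results of these data known. Beside the members, the text names BRD7, SMARCA4, SMARCA2, the 3 called SWI/SNF genes with the largest rise and fall, the 2 with the largest change in each other list and the 3 most correlated genes. Alternatives were a pseudocount of 0.1, no filter or 5 RPKM, 2 scalings, no trend, compared groups alone, the pair kept apart, a replicate block, each library left out and voom on the recovered reads.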

Additional observations from a re-analysis of the deposited data

How the results depend on the processing

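Of the 24 fold changes of members, 8 genes in 3 comparisons, each was recomputed under 19 alternatives. The fall of DPF1 with 2-DG was called under all 19, at -2.67 to -1.76 on the log2 scale. The largest fall came from voom and the smallest from leaving out NC replicate 2. ARID1A and DPF2 kept their direction with 2-DG under all 19 alternatives, but not their calls. The ARID1A call was lost in 2 of the fits with a library left out. The DPF2 call was lost in 6 of those fits and under 5 of the 10 other alternatives. The number of members called with 2-DG was 1 to 3 with a library left out. For Nala against 2-DG it was 1 without an intensity trend or with the compared groups alone, and 1 to 2 with a library left out. Other SWI/SNF genes called in that comparison were 3 with the compared groups alone and 2 to 6 with a library left out. Other remodellers called were 8 to 15 with 2-DG and 6 to 14 for Nala against 2-DG with a library left out. Fits of fewer samples have fewer degrees of freedom, and other causes were not tested. Sign changes were limited to fold changes near 0 that passed no test. ARID1A with Nala became 0.00026 with the pair kept apart, and ARID2 for Nala against 2-DG became 0.011 with median-of-ratios scaling. With a library left out, ranges that crossed 0 were -0.069 to 0.025 for ARID1A, -0.076 to 0.0046 for ARID1B, -0.020 to 0.28 for DPF1, -0.029 to 0.044 for DPF2 and -0.0099 to 0.18 for PHF10 with Nala. They were -0.0029 to 0.082 for ARID1B with 2-DG, and -0.032 to 0.034 for ARID2 and -0.072 to 0.089 for SMARCE1 for Nala against 2-DG. The DPF2 to PHF10 log2 ratio with Nala ranged from -0.21 to 0.053. In the replicate block, with the Nala pair kept apart, 3 members were called with 2-DG, 0 with Nala and 3 for Nala against 2-DG, where DPF2 was added (limma adjusted p = 0.0383, beside 0.0451 with the pair kept apart alone and 0.0312 without 2-DG replicate 1). ARID1A with Nala was again 0.00026 there. Deviations of libraries with the same number correlated at -0.119 to 0.0772, and those of libraries with different numbers at -0.120 to 0.142. With 3 libraries per group, whose deviations sum to 0, this cannot settle whether equal numbers mark a shared culture or day. Without Nala replicate 1 the lone remaining Nala sample was assumed to vary like the other groups. Counted reads of tested members ran from 11 to 1956 per library, which limits the precision most for DPF1.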

Other observations

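SMARCB1 was 1 of 10 genes in the table with at least 10 reads in 1 library and at most 2 reads in each of the others. In 2 of these 10 genes, SMARCB1 itself among them, the high library was NC replicate 2. This count was made after the SMARCB1 values were seen.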
